A study of Rattus norvegicus with 9 samples.

Results

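Dusp1, Dusp5 and Dusp6 encode dual specificity phosphatases that switch off MAP kinases, and their transcripts were followed here in the prefrontal cortex of single rats. Members were the probe sets whose only gene symbol in the array's annotation was Dusp1, Dusp5 or Dusp6. This gave 6 of the 15866 probe sets that are not controls: 2 for Dusp1, 1 for Dusp5 and 3 for Dusp6. All 9 animals were male Lewis rats, an inbred strain, and form 1 untreated group with no control group. Each had 1 Affymetrix expression array, hybridised with total RNA from a block of frontal cortex taken without the olfactory bulb, 12 days after behavioural testing ended. The labels record 4 behaviours per rat without units (startle, locomotion, plus maze, sugar feeding), and the question was how brain mRNA relates to behaviour within an inbred strain. The rats with arrays came from a larger set of tested animals and are described as differing in their behaviour.

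MAP kinases relay signals from growth factors, synaptic activity and stress by phosphorylating other proteins, and a dual specificity phosphatase inactivates them by removing phosphate from both the threonine and the tyrosine of their activation loop. Several of these phosphatases are themselves transcribed in response to the kinase they inactivate, which makes them negative feedback inhibitors. Dusp1 is a nuclear enzyme that acts on ERK, JNK and p38, and it is an immediate early gene that is also induced by glucocorticoids. Dusp5 is a nuclear phosphatase selective for ERK, and Dusp6 is its cytoplasmic counterpart. In neurons, ERK also drives activity-induced genes such as Fos, Egr1 and Arc.

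The stretches just upstream of the 3 genes are shown because ERK and calcium signals reach such genes through short promoter motifs. They come from RefSeq on the GRCr8 build, each on the plus strand and read 5′ to 3′, ending at the last base before the gene's first annotated base. Dusp1 lies at chr10:17184853-17187646, Dusp5 at chr1:262543774-262557201 and Dusp6 at chr7:35979502-35983834. The stretch of Dusp1 is chr10:17184603-17184852 and that of Dusp5 is chr1:262543524-262543773, while that of Dusp6, chr7:35979354-35979501, holds only 148 bases. Capitals mark the cyclic AMP response element (CRE) of Dusp1 and the CArG boxes, the motif of serum response factor, of Dusp5.
Dusp1: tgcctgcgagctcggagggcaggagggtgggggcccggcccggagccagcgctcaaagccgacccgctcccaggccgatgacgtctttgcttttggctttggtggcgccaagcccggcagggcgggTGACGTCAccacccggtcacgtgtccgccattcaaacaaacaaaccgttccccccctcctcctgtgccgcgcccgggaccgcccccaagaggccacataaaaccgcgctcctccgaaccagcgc
Dusp5: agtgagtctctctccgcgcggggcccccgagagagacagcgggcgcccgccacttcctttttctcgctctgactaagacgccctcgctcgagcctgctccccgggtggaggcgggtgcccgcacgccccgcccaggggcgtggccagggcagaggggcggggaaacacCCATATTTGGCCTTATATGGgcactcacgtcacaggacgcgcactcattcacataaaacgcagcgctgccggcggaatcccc
Dusp6: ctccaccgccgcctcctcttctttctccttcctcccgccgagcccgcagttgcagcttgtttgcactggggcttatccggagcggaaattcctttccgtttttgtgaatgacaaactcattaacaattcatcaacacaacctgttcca

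The motifs were searched on both strands in the RefSeq windows of 300 bases around the start sites. They were the CRE TGACGTCA, its core TGACG, and the CArG box by its usual consensus. The last was CCGGAA, a longer form of the GGAA core of ETS sites, called the ETS motif here. Dusp1 held 1 CRE, and 3 places matched the core, of which 2 overlap that CRE. Dusp5 held 2 CArG boxes that directly follow each other, 1 CRE core, and 1 ETS motif just past its start and outside the stretch shown. The Dusp6 window held none of these motifs. The bare GGAA was not counted, and each stretch shown holds it on at least 1 strand. Of 33469 rat promoter windows, 1.83% held the CRE, 21.2% its core, 1.64% a CArG box and 15.0% the ETS motif, so the CRE and the CArG box are the less common matches. A match here is a match of letters, and no binding was measured.

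Rats 8 and 9 had arrays unlike those of the other 7. On the first principal component, with 49.6% of the variance, rats 1 to 6 lay between -12.1 and -6.41, and rat 7 at -1.62. Rats 8 and 9 scored 35.6 and 30.2. They also differed in a possible sign of RNA quality: the hexokinase control read 5′ minus 3′ was -2.02 and -1.14 on the log2 scale, against -2.91 to -2.41 in the other rats. Its 3′ end was also higher, at 8.11 and 8.14 against 7.03 to 7.52. The beta-actin control read 5′ minus 3′ was -2.45 and -2.29, against -3.08 to -2.52. GAPDH did not set them apart, at -0.463 and -0.775 against -0.826 to -0.454. Results are therefore given over 9 rats and again over the other 7. Transcripts of cortical neurons and glia were measured, among them Slc17a7 and Camk2a of excitatory neurons and all 6 listed inhibitory markers. Of the 4 listed olfactory bulb markers only 1 has a symbol in the array's annotation, and it did not pass the filter on low values, which kept 9520 probe sets with a mean log2 value of at least 3.22.

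Dusp1 transcript varied about 2.49-fold between the lowest and the highest rat. Its probe set 1368146_at, the Dusp1 probe set of higher mean, averaged 7.66 ± 0.355 log2 units (SD, n = 9). In rats 1 to 9 it read 7.01, 7.59, 7.69, 7.65, 7.64, 7.65, 8.33, 7.42 and 7.94. Rat 1 was lowest and rat 7 highest, with 5 rats packed between 7.59 and 7.69. The second Dusp1 probe set, 1368147_at, lay close to the filter and read 3.63, 3.62, 3.86, 3.46, 3.60, 3.61, 3.81, 3.90 and 4.16. There rat 9 was highest and rat 1 was in the middle of the group.

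Dusp5 had only probe set 1368124_at, whose mean of 3.55 ± 0.128 (SD, n = 9) was 0.33 log2 units above the filter. Rats 1 to 9 read 3.28, 3.50, 3.60, 3.56, 3.54, 3.56, 3.56, 3.56 and 3.78. Rat 1 was lowest and rat 9 highest, and rats 4, 6, 7 and 8 had exactly the same value. Such repeats are a property of the deposited values: 47.0% of the kept probe sets repeated a value exactly on 2 or more arrays, and 4.22% on 4 or more. Dusp5 was therefore separated from its neighbours mainly in rats 1 and 9.

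Of the 6 probe sets, Dusp6 probe set 1387024_at varied most, about 4.02-fold, and it is annotated to the RefSeq mRNA. It averaged 8.14 ± 0.713 log2 units (SD, n = 9), and its SD exceeded that of 98.2% of the kept probe sets. Rats 1 to 9 read 7.62, 7.34, 7.82, 7.70, 7.79, 7.84, 8.80, 9.01 and 9.35. Rats 7, 8 and 9 were all higher than the other 6, which lay between 7.34 and 7.84. The arrays of rats 8 and 9 are those that stood apart. The array of rat 7 was not set aside with them, but it lay nearest to them on the first principal component, at -1.62. It is kept among the 7 rats. Without rats 8 and 9 the SD of this probe set was 0.454.

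The other Dusp6 probe sets did not show this pattern. They varied about 1.62-fold (1377064_at) and 1.44-fold (1382778_at), both less than Dusp1 at 2.49-fold. Their SDs exceeded those of 49.1% and 48.2% of the kept probe sets. Probe set 1377064_at read 7.87, 7.73, 7.45, 7.87, 7.84, 7.98, 8.15, 7.87 and 7.87 in rats 1 to 9, and rat 7 was highest with rats 8 and 9 near the middle. Probe set 1382778_at read 7.60, 7.56, 7.49, 7.69, 8.02, 7.67, 7.55, 7.78 and 7.97, with rats 5 and 9 highest and rat 7 among the lowest. Probe sets of the same gene can measure different transcript ends or forms, and which of them these measure was not tested.

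**Figure D1:**
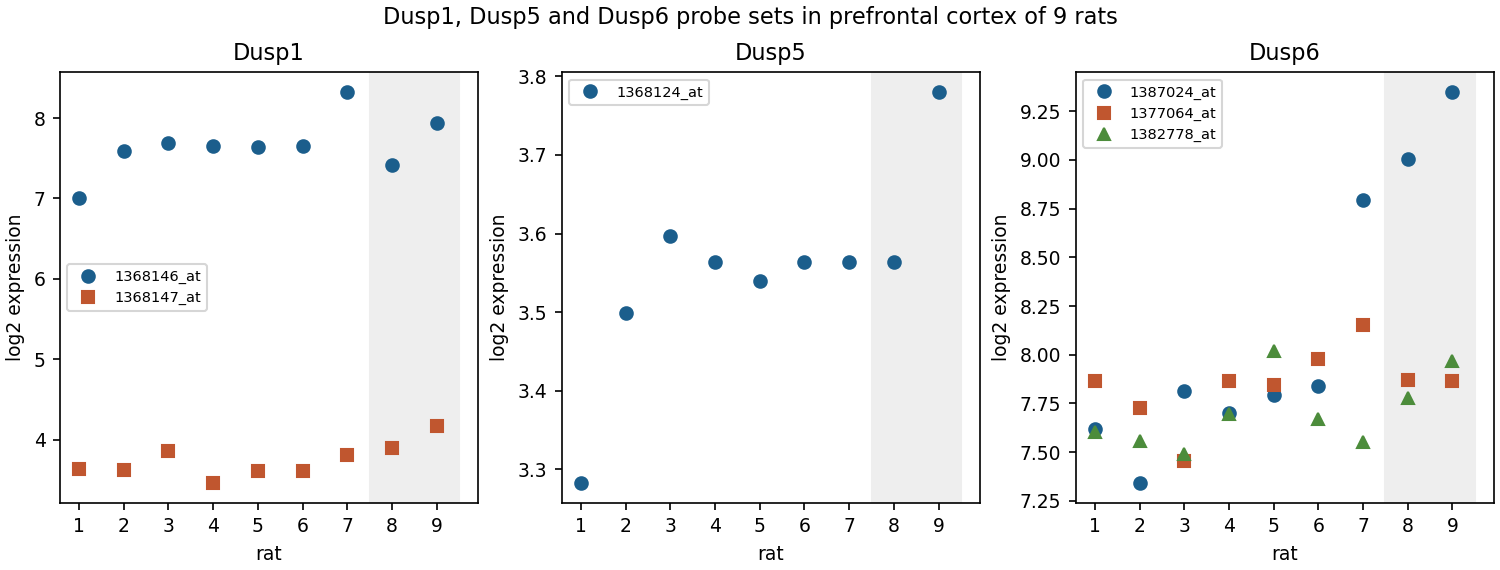
Log2 expression of the 6 probe sets of Dusp1, Dusp5 and Dusp6 (y axes, each with its own range) in each of 9 rats (x axis), with rats 8 and 9 shaded. Only Dusp6 probe set 1387024_at is above 8.7 in rats 7, 8 and 9 together, at 8.80, 9.01 and 9.35, while Dusp5 holds the same value of 3.56 in 4 rats.

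Probe sets of the same gene went together only loosely. The Dusp1 probe sets correlated at Pearson r = 0.36 over the 9 rats. Within Dusp6, probe set 1387024_at correlated with 1377064_at at 0.39 and with 1382778_at at 0.41, and 1377064_at with 1382778_at at 0.20. In the 7 rats the values were 0.41 for Dusp1 and, in the same order, 0.60, -0.12 and 0.20 for Dusp6. Across the array this was usual, since 1309 such pairs of 888 genes had a median r of 0.155. Each result below is therefore a result of the named probe set, and unless one is named, Dusp1 stands for 1368146_at, Dusp5 for 1368124_at and Dusp6 for 1387024_at.

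Between the 3 genes, 11 pairs of probe sets were compared, and none had an adjusted exact permutation p under 0.05 for Pearson r. The highest was that of Dusp1 probe set 1368147_at with Dusp6, at r = 0.84 (two-sided exact p = 0.00460, adjusted over 11 pairs 0.0506) and Spearman rho = 0.67 (exact p = 0.0589). It was 0.53 without rats 8 and 9, which are also the 2 rats farthest from the median of that Dusp1 probe set. In limma, fitted across the array on the level of Dusp6, this Dusp1 probe set passed narrowly over the 9 rats, with a slope of 0.18 ± 0.0456 per SD (SE) and an adjusted p of 0.0490, where 3.81% of all probe sets passed with a positive slope. Its adjusted p was 0.852 without rats 8 and 9, 0.0654 with no filter and 0.0508 with quantile normalization again, and it was 0.00650 with array weights, so the call depends on these settings. When each rat was left out it lay between 0.0326 (without rat 7) and 0.283 (without rat 9), and besides rat 7 only leaving out rat 3 kept it under 0.05, at 0.0378. Dusp1 and Dusp5 had r = 0.69 (exact p = 0.0389, adjusted 0.183) and rho = 0.75 (exact p = 0.0204, adjusted 0.112). This r was 0.33 without rat 1, the lowest in both, and 0.93 without rat 7. Dusp5 and Dusp6 had r = 0.63 (exact p = 0.0499, adjusted 0.183) and rho = 0.77 (exact p = 0.0185, adjusted 0.112), with 0.33 over the 7 rats. Dusp1 and Dusp6 had r = 0.48 (exact p = 0.218, adjusted 0.480), and 0.79 over the 7 rats (exact p = 0.0496, adjusted 0.546). The 6 pairs that held Dusp6 probe sets 1377064_at or 1382778_at lay between -0.07 and 0.42. For scale, 1.07% of the other probe sets had a higher r with Dusp1 than Dusp5 did, and 5.57% a higher one than Dusp6 did.

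None of the 6 probe sets passed the limma test for a slope with any of the 4 behaviours at an adjusted p of 0.05. The same was true of the whole array, on which 0% of 9520 probe sets passed for each behaviour. At an unadjusted limma p under 0.05, the share called of the 9520 was 13.2% with startle and 1.96% with locomotion, and it was 2.99% with plus maze and 1.4% with sugar feeding. Of the 24 member slopes, 1 was called in that way, that of Dusp1 with locomotion.

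Dusp1 had a negative relation with locomotion that did not pass after adjustment. The log2 level changed by -0.25 ± 0.0871 for each SD of locomotion (SE, n = 9), with an unadjusted limma p of 0.0178 and an adjusted p of 1.00. Pearson r was -0.71 (exact p = 0.0379, adjusted over the 4 behaviours 0.152), and rho was -0.63 (exact p = 0.0773, adjusted 0.155). Rat 1, with the lowest Dusp1, had the highest locomotion value, 1102, and without it r was -0.43. Leaving out rats 1 and 3, whose locomotion values lay farthest from the median, gave r = -0.59 (exact p = 0.156), and the 7 rats gave -0.75 (exact p = 0.0754). The second Dusp1 probe set did not show the relation, with r = -0.07 (exact p = 0.858). Dusp5 had r = -0.54 with locomotion (exact p = 0.132, adjusted 0.454). Over the 7 rats this became -0.93 (exact p = 0.00476, adjusted 0.0190), but over all 9 rats but rat 1 it was 0.05, and over all but rats 1 and 3 it was 0.12. In rats 2 to 7 it was -0.72 (exact p = 0.0833, n = 6), so the sign of this relation without rat 1 turned on whether rats 8 and 9 were in.

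Dusp6 had a negative slope with startle at each of its 3 probe sets, and none passed. For probe set 1387024_at the log2 level changed by -0.42 ± 0.193 for each SD of startle (SE, n = 9), with a limma adjusted p of 0.385, and r = -0.59 (exact p = 0.0988, adjusted 0.303). Probe sets 1377064_at and 1382778_at had r = -0.57 and -0.54, with exact p = 0.109 and 0.136. In the 7 rats the values were -0.45, -0.65 and -0.52 in the same order. Without rat 3, which had the highest startle value of 501, r of 1377064_at was -0.20. Leaving out rats 1 and 3, whose startle values lay farthest from the median, the values were -0.59, -0.18 and -0.27.

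With plus maze, Dusp1 had rho = -0.69 (exact p = 0.0467, adjusted 0.155) but r = -0.34 (exact p = 0.370). Dusp5 was alike, with rho = -0.70 (exact p = 0.0397, adjusted 0.159) and r = -0.40 (exact p = 0.320). Over the 7 rats, r was -0.30 for Dusp1 (exact p = 0.502) and -0.23 for Dusp5 (exact p = 0.705), with rho of -0.65 and -0.58. Rats 2 and 6, both at the highest plus maze value of 18.7, had Dusp1 levels of 7.59 and 7.65 and Dusp5 levels of 3.50 and 3.56, none of them the lowest or highest of its gene, and without them r was -0.76 for Dusp1 (exact p = 0.0536) and -0.86 for Dusp5 (exact p = 0.00714). Dusp6 had r = -0.50 with plus maze (exact p = 0.151, adjusted 0.303) and rho = -0.51, with r = -0.46 over the 7 rats. Its probe sets 1377064_at and 1382778_at had r = 0.12 and -0.31, and Dusp1 probe set 1368147_at had -0.46. For sugar feeding, the 6 probe sets had r between -0.30 and 0.06, and the lowest exact p was 0.404.

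**Figure D2:**
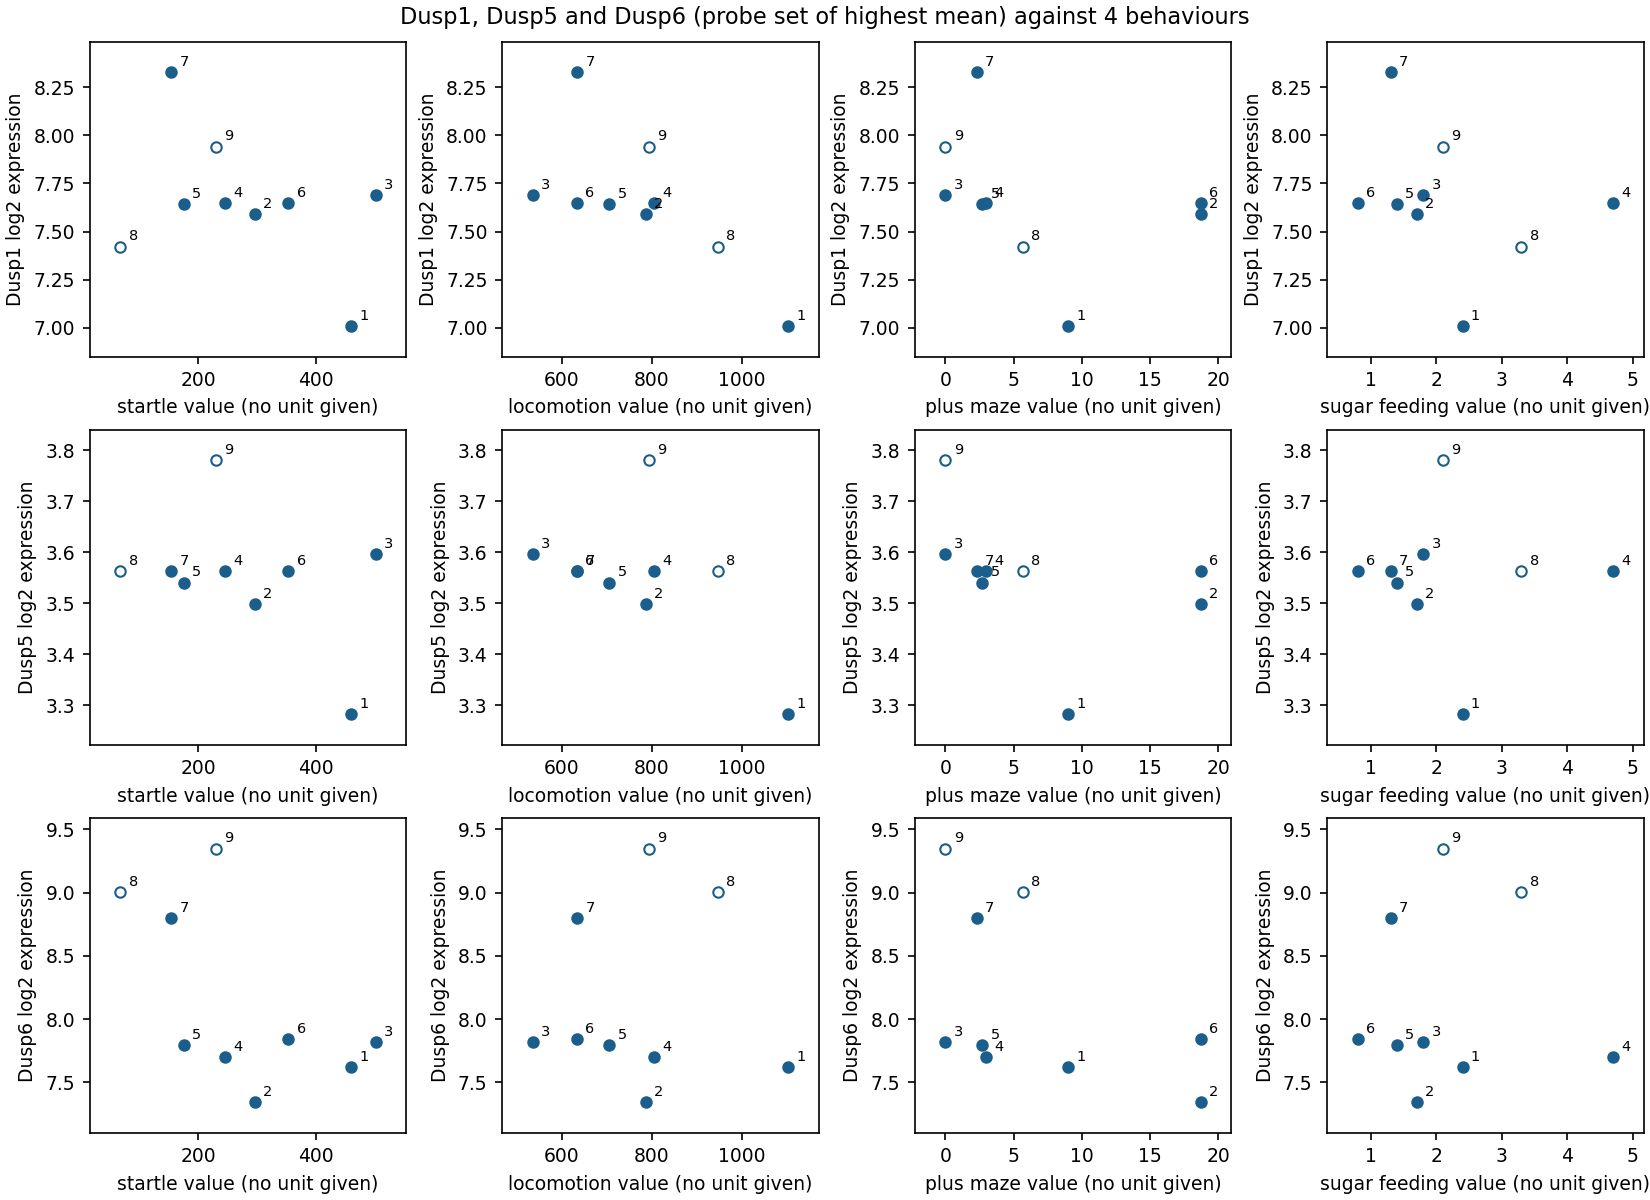
Log2 expression of Dusp1 (1368146_at), Dusp5 (1368124_at) and Dusp6 (1387024_at) by row (y axes) against the 4 behaviours by column (x axes, no unit given: startle, locomotion, plus maze, sugar feeding). Each point is 1 rat with its number, and open points are rats 8 and 9. Rat 1, at a locomotion value of 1102, is lowest in Dusp1 and Dusp5, and r of Dusp5 with locomotion is 0.05 without it.

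The genes whose level followed Dusp6 were many, and those of Dusp1 and Dusp5 did not pass. With Dusp6, limma called 363 of 9517 probe sets with a positive slope (3.81%) and 267 with a negative slope (2.81%) at an adjusted p under 0.05. Without rats 8 and 9 it called 7 (0.0736%) and 3 (0.0315%), and with ranks of the Dusp6 level it called 0, with 1754 at an unadjusted p under 0.05. With Dusp1, limma called 0 of 9518, with 344 at an unadjusted p under 0.05, and with Dusp5 it called 0 of 9519, with 634.

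Among genes in the 9 rats, Tiparp had the pattern most like that of Dusp1, with r = 0.97 over 9 rats and 0.87 without rats 1 and 7, the farthest from the Dusp1 median. Tiparp, an ADP-ribosyltransferase induced by the aryl hydrocarbon receptor, read 3.94, 4.37, 4.47, 4.47, 4.37, 4.47, 5.00, 4.11 and 4.55 in rats 1 to 9. As with Dusp1, rat 1 was lowest, rat 8 next and rat 7 highest, and the limma adjusted p was 0.123. Next came Chrm4, a muscarinic acetylcholine receptor (0.94), Chd3, a chromatin remodeller (0.91), Efr3a (0.87) and Nr4a1, an immediate early nuclear receptor (0.87). The most opposite patterns were those of Pak3, a p21-activated kinase of dendritic spines (-0.96), Ralb, a small GTPase (-0.93), and Eif4b, a translation initiation factor (-0.90). For each of these 7, the adjusted p was 1.00. Without rats 1 and 7, Efr3a had 0.32 and Nr4a1 0.48, while Pak3 had -0.92.

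For Dusp5 the most similar genes were Entr1 (0.94), the clock gene Per1 (0.93), Spryd3 (0.93), Rbck1, a subunit of a ubiquitin ligase complex (0.92), and Cit, the citron kinase (0.92). Commd7 (-0.98), Rnf113a1 (-0.95) and Mcfd2 (-0.95) were the most opposite. Rnf113a1 hardly varied, from 4.20 in rat 9 to 4.24 in rat 1, with a slope of -0.0096 per SD of Dusp5 (limma adjusted p = 0.973). Per1 read 3.75, 4.71, 4.77, 5.09, 4.81, 4.97, 5.34, 5.47 and 6.20 in rats 1 to 9, lowest in rat 1 and highest in rat 9 as Dusp5 was. Its limma adjusted p with Dusp5 was 0.216, the lowest of all. Without rats 1 and 9, the correlations of these 8 genes with Dusp5 lay between -0.52 and 0.62, so they rest largely on those 2 rats.

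For Dusp6 the most similar genes were Sash1, a signalling scaffold (0.98), Rai1, a transcriptional regulator (0.98), Ttyh1, a membrane protein of the tweety family (0.97), Rph3a, the synaptic vesicle protein rabphilin (0.97), and R3hdm2 (0.97). Sash1 read 7.65, 7.45, 7.65, 7.69, 7.55, 7.75, 8.39, 8.60 and 9.03 in rats 1 to 9, high in rats 7, 8 and 9 as Dusp6 was. Its slope was 0.55 ± 0.0404 log2 units per SD of Dusp6 (limma adjusted p = 0.000391, SE). Trappc1, a vesicle trafficking subunit (-0.96), Mrps17, a mitochondrial ribosomal protein (-0.96), and Idh3a, a subunit of mitochondrial isocitrate dehydrogenase (-0.95), were the most opposite. Without rats 8 and 9, r of these 8 genes lay between 0.89 and 0.96 for the 5 similar ones, and between -0.91 and -0.87 for the 3 opposite ones, and none passed, with adjusted p of 0.0573 or more. Over the 7 rats, 1 of the 5 highest and 1 of the 3 lowest names of Dusp1 stayed among its top names, against none for Dusp5 and Dusp6.

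**Figure D3:**
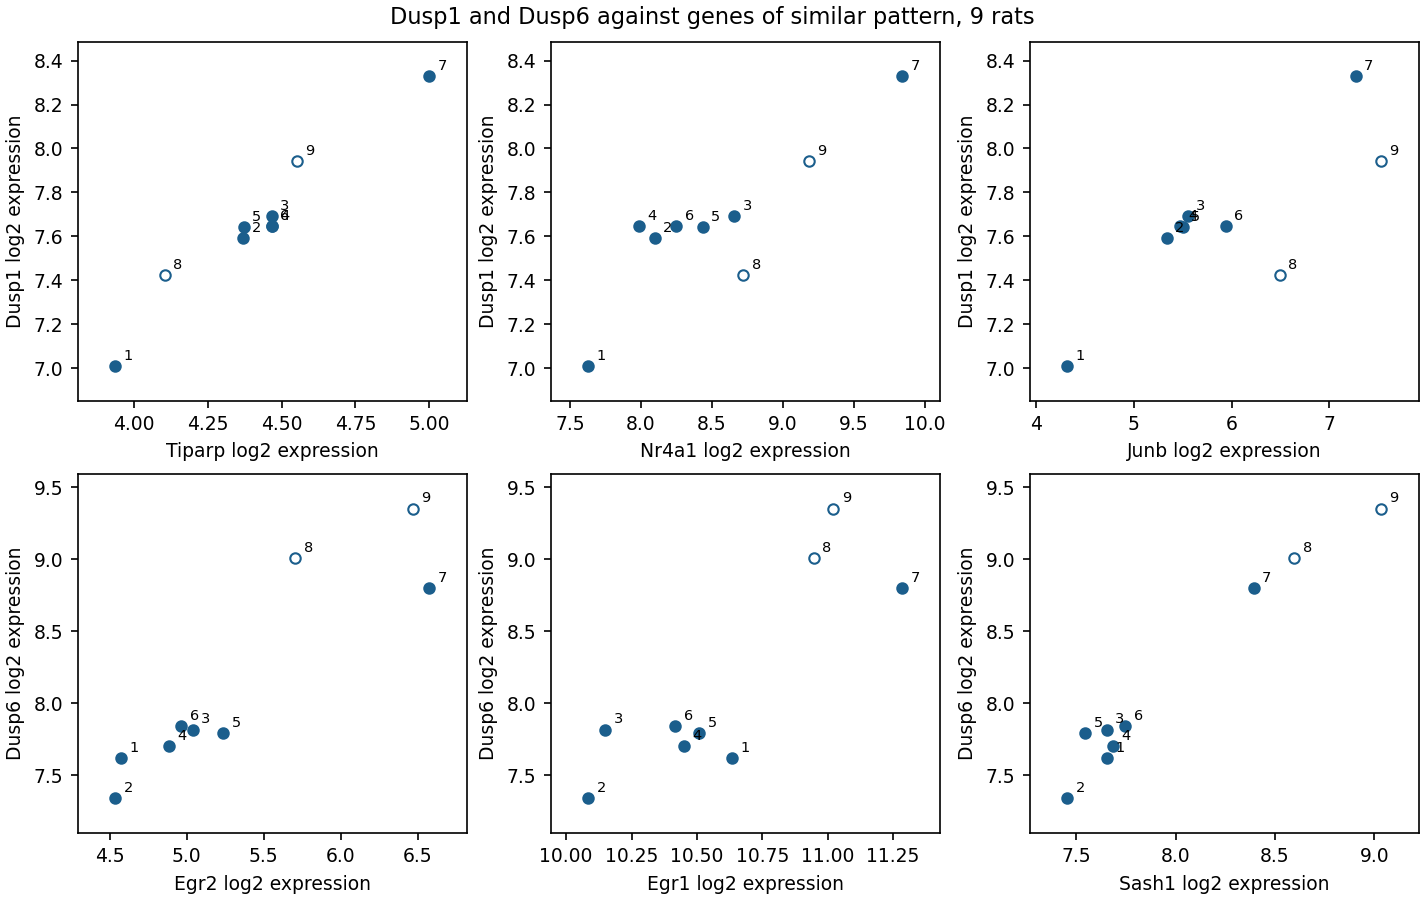
Log2 expression of Dusp1 (top row, y axes) against Tiparp, Nr4a1 and Junb, and of Dusp6 (bottom row, y axes) against Egr2, Egr1 and Sash1 (x axes), with each point 1 numbered rat and open points rats 8 and 9. Tiparp orders the rats nearly as Dusp1 does (r = 0.97), and in the Dusp6 panels rats 7, 8 and 9 lie apart from the other 6.

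Several activity-induced genes, which neurons transcribe soon after firing, were high in the rats in which Dusp6 was high. Of 30 listed genes 19 were tested with 28 probe sets. Of these 28, 7 passed with a positive slope on Dusp6 and 0 with a negative one, where 3.81% and 2.81% of all probe sets did. The median r of the 28 with Dusp6 was 0.57, against -0.27 over all probe sets tested. Egr2, a zinc finger transcription factor, had r = 0.92 and its log2 level changed by 0.70 ± 0.100 for each SD of Dusp6 (limma adjusted p = 0.00547, SE, n = 9). It read 4.58, 4.54, 5.04, 4.88, 5.24, 4.97, 6.57, 5.71 and 6.47 in rats 1 to 9, so rats 7, 8 and 9 were above the other 6. The AP-1 subunit Junb (0.88, adjusted p = 0.0139), Egr1 (0.85, adjusted p = 0.0302) and the nuclear receptor Nr4a3 (0.85, adjusted p = 0.0268) also passed in limma. The remaining 3 were the cytoskeletal gene Arc, the postsynaptic scaffold Homer1 at 1 of its 5 probe sets, and the neurotrophin Bdnf at 1 of 2. These 3 are named after their values were seen. The mean level of excitatory neuron markers was high in the same 3 rats (r = 0.99 with Dusp6), and its part in these calls was not tested.

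Over the 7 rats, 2 of the 28 activity-induced probe sets passed with Dusp6. They were Fos, the prototype immediate early gene (r = 0.99, limma adjusted p = 0.00652), and Egr2 (r = 0.98, adjusted p = 0.0274), out of 10 probe sets called on the array. Fos read 7.12, 6.75, 7.71, 7.25, 7.51, 7.44, 9.10, 7.05 and 8.25 in rats 1 to 9. It was low in rat 8, where Dusp6 was high, and over the 9 rats its r was 0.59 (adjusted p = 0.197). In rats 1 to 6 alone, without the 3 rats of high Dusp6, r was 0.94 for Fos and 0.82 for Egr2. Of the other 6 probe sets that passed over the 9 rats, Homer1 had 0.89 and Arc 0.64 there, while Junb had 0.41, Egr1 0.38, Nr4a3 0.35 and Bdnf 0.25. The other 8 called probe sets, named after their values were seen, were those of Psd, Atrx, Map1b and Kcnj4 and 1 unnamed probe set with positive slopes, and Amph, Gnb1 and Vamp7 with negative slopes. With the other Dusp6 probe sets, the median r of the 28 activity-induced probe sets was 0.29 for 1377064_at, against -0.06 over all probe sets, and 0.21 for 1382778_at, against -0.10. Over the 7 rats these list medians were 0.32 and -0.13.

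With Dusp1, 0 of the 28 activity-induced probe sets passed at the adjusted threshold. At an unadjusted limma p under 0.05, 7 had a positive slope and 0 a negative one, where 1.57% and 2.05% of all probe sets did, and the median r was 0.33 against -0.08 for all probe sets. The highest were Nr4a1 (0.87), Fos (0.84), Junb (0.80) and Arc (0.79), each with an adjusted p of 1.00. Rat 7 carries much of this: without it the list's median r was 0.07. Over the 7 rats the median was 0.46 and Junb reached 0.98 (adjusted p = 0.0682). With Dusp5, 7 probe sets had a positive slope and 0 a negative one at an unadjusted p under 0.05, where 3.36% and 3.3% of all did, and the median r was 0.24 against -0.14. Its highest were Junb (0.81), Klf10 (0.80), Arc (0.78) and Nr4a3 (0.78), each with an adjusted p of 0.710. In the 7 rats that median was 0.06, with 4 probe sets in each direction, where 3.3% and 1.84% of all were called. Rats 7 and 9 were each highest in 9 of the 28 activity-induced probe sets, and rat 2 was lowest in 14.

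Glucocorticoid targets, a class to which Dusp1 itself belongs, gave no call with it, and neither did the whole array (0 of 9518 probe sets). The list of 17 genes also holds the receptors Nr3c1 and Nr3c2. Of the 17, 14 were tested with 15 probe sets, and their median r with Dusp1 was -0.19, against -0.08 for all. Per1 had the highest r with Dusp1 (0.68, adjusted p = 1.00), and Fkbp5, a glucocorticoid-induced chaperone, had -0.55. Per1 was the 1 glucocorticoid target that passed with Dusp6 (r = 0.81, limma adjusted p = 0.0408), and over the 7 rats it had 0.55 (adjusted p = 0.700). That is 1 of the 15 probe sets, where 3.81% of all passed with a positive slope on Dusp6 and 2.81% with a negative one.

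The kinases that these phosphatases act on, and their other brakes, gave few calls with the 3 genes at the adjusted threshold. Of the Ras-ERK cascade, 11 of 22 genes were tested with 14 probe sets, and 1 passed with Dusp6: Rasgrf2, a Ras exchange factor of neurons (r = 0.87, limma adjusted p = 0.0205), with 0.52 over the 7 rats. Of all probe sets, 3.81% passed with a positive slope on Dusp6 and 2.81% with a negative one. Sos2 (-0.86), Rasgrf1 (0.82) and Sos1 (-0.78) did not pass, with limma adjusted p of 0.0595, 0.141 and 0.0699. At an unadjusted limma p under 0.05, 3 of the 14 had a positive and 3 a negative slope on Dusp6, where 8.54% and 16.7% of all did. Over the 7 rats these counts were 0 and 1, where 433 and 568 of all 9517 probe sets were called. With Dusp1 and Dusp5, 0 of the 14 passed, and 0 and 1 had an unadjusted p under 0.05. At that level, 1.57% of all probe sets had a positive and 2.05% a negative slope on Dusp1, against 3.36% and 3.3% on Dusp5. Of the JNK and p38 cascades, 7 of 13 genes were tested and 0 of 7 probe sets passed with any of the 3 genes, with 2 at an unadjusted p under 0.05 for Dusp6, where 8.54% of all probe sets had a positive and 16.7% a negative slope at that level. Of the other ERK feedback inhibitors, 4 of 11 were tested and 0 passed, with 1 at an unadjusted p under 0.05 for Dusp6. Those were Rasa1, a Ras GTPase-activating protein, Pebp1, an inhibitor of Raf, and Spred3 and Spry2, inhibitors of Ras-ERK signalling, with r to Dusp6 of -0.66, -0.56, -0.19 and -0.54. Their median r with Dusp6 was -0.55, against -0.27 for all probe sets, and over the 7 rats it was 0.12 against -0.07, with 2 of the 4 positive.

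Of the other dual specificity phosphatases, 6 of 19 genes were tested with 7 probe sets. Dusp3, a small phosphatase without a kinase-binding domain, gave the 1 that passed with Dusp6, probe set 1377300_at (r = 0.89, limma adjusted p = 0.0122), while its probe set 1389050_at had r = -0.72 (adjusted p = 0.197). The probe set that passed was highest in rats 8 and 9, at 6.31 and 6.58, and over the 7 rats its r was 0.60. Of all probe sets, 3.81% passed with a positive slope on Dusp6 and 2.81% with a negative one. Dusp22 (-0.65), Dusp26 (-0.41) and Dusp11 (-0.22) did not pass with Dusp6. Of ERK-regulated transcription factors and kinases, 7 of 16 genes were tested, and Mknk2, a kinase that phosphorylates eIF4E, was the 1 that passed with Dusp6 (r = 0.84, limma adjusted p = 0.0344), with 0.48 over the 7 rats. With Dusp1 and Dusp5, 0 of these 7 passed, with 0 and 1 at an unadjusted p under 0.05. At that level, 1.57% of all probe sets had a positive and 2.05% a negative slope on Dusp1, against 3.36% and 3.3% on Dusp5.

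**Figure D4:**
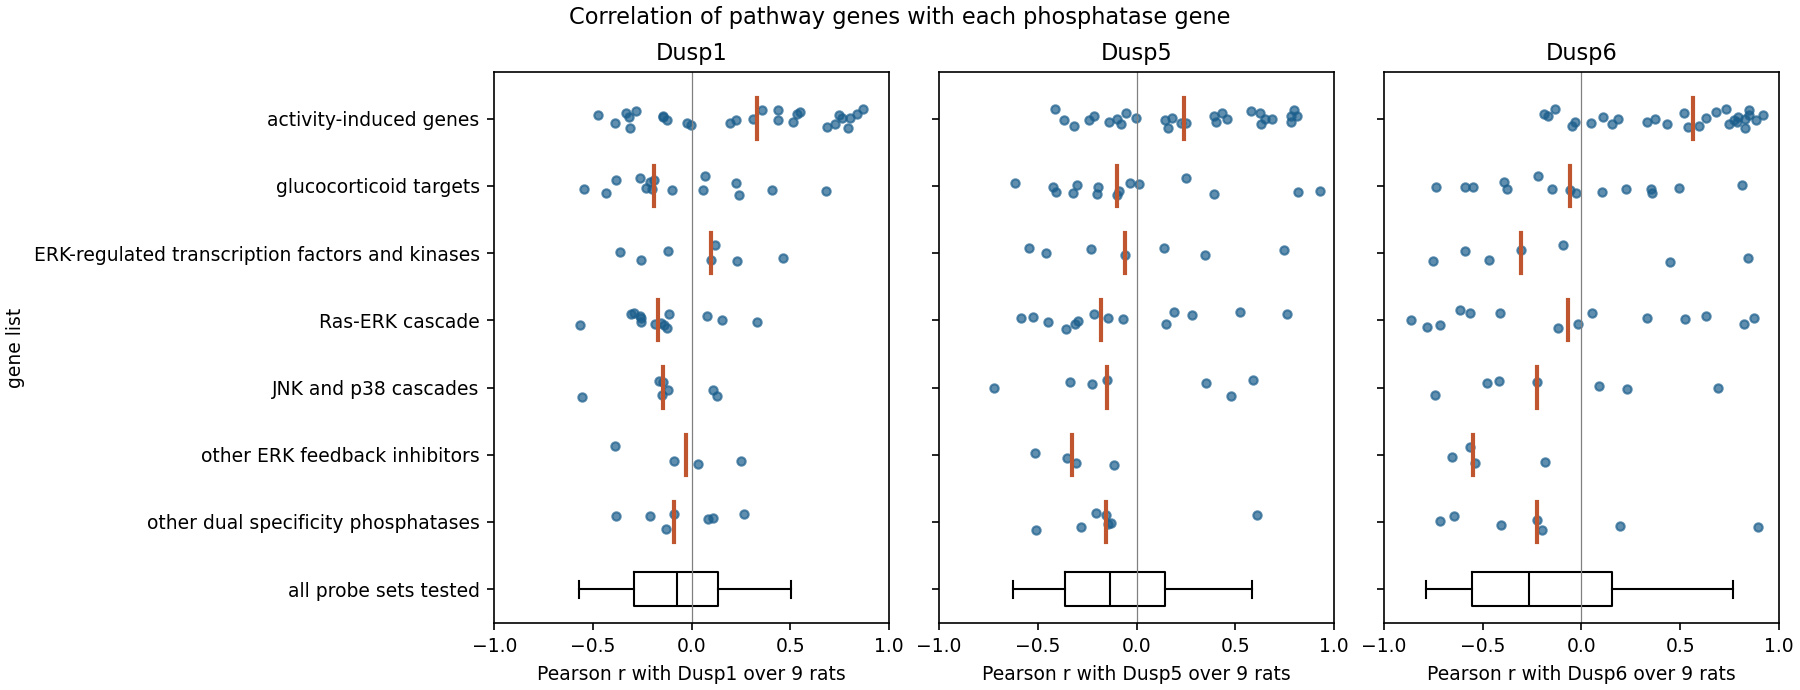
Pearson r over 9 rats (x axes) of each probe set of 7 gene lists (rows, points, with the list's median as a bar) with Dusp1, Dusp5 and Dusp6 (panels). The bottom row gives all probe sets tested as a box of quartiles with whiskers at the 5th and 95th percentiles. Activity-induced genes have medians of 0.33, 0.24 and 0.57, to the right of the medians of all probe sets at -0.08, -0.14 and -0.27.

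Markers of cortical excitatory neurons moved with Dusp6. Of 9 listed markers, 3 were tested with 6 probe sets: Slc17a7, the vesicular glutamate transporter, Camk2a, a synaptic kinase, and Cux2, a transcription factor of upper layers. Their mean log2 level correlated with Dusp6 at r = 0.99 and with Dusp1 at 0.55. It was 7.59, 7.58, 7.82, 7.70, 7.80, 7.84, 8.51, 8.56 and 8.63 in rats 1 to 9, higher in rats 7, 8 and 9 than in the other 6. In limma 4 of the 6 passed with a positive slope on Dusp6, against 3.81% of all probe sets, and 0 over the 7 rats, where the median r was 0.81. With startle, as for Dusp6, all 6 had a negative r (median -0.54). Of these, 3 had an unadjusted limma p under 0.05 with startle, where 13.2% of all probe sets did. In such bulk tissue, more cells of a type and more RNA per cell cannot be told apart, and the part of these markers in the Dusp6 results was not tested.

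Other cell types were less aligned with Dusp6. The mean level of 7 inhibitory probe sets (7.19 to 7.65 over the rats) had r = 0.22 with Dusp6, and that of 11 astrocyte probe sets (7.87 to 8.48) had 0.51. Oligodendrocyte markers (7.92 to 8.87) had 0.20, microglial markers (6.01 to 6.59) -0.64, and endothelial markers (5.24 to 5.88) -0.46. Single probe sets of a type differed in sign. The inhibitory ones had a median r of -0.27 with Dusp6 (-0.72 to 0.81, 2 of 7 positive). The astrocyte ones had 0.17 (-0.81 to 0.87, 6 of 11 positive). Over the 7 rats the median r was -0.25 for inhibitory, -0.26 for astrocyte and -0.44 for oligodendrocyte markers, the last with 0 of 9 positive. It was -0.29 for microglial and 0.01 for endothelial markers. By probe set, 1 of 7 inhibitory, 2 of 11 astrocyte, and 0 of 9 oligodendrocyte, 6 microglial and 8 endothelial ones passed with Dusp6, each of those 3 with a positive slope, where 3.81% of all probe sets passed. With Dusp1 these 5 means had r between -0.21 and 0.03. Their part in the results was not tested.

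With the behaviours, the activity-induced genes had no probe set that passed, as on the whole array. Their median r was -0.24 with startle, -0.16 with locomotion, -0.32 with plus maze and -0.06 with sugar feeding, against 0.17, -0.08, 0.08 and -0.02 for all probe sets tested. At an unadjusted limma p under 0.05 they gave 3 probe sets with startle, 2 with locomotion, 2 with plus maze and 0 with sugar feeding. Of these 28 that is 10.7% with startle, below the 13.2% of the whole array, and 7.14% with each of locomotion and plus maze, where 1.96% and 2.99% of the array were called. The JNK and p38 list, whose kinases Dusp1 acts on, had a median r of 0.25 with startle and -0.20 with locomotion, with 1 and 0 of 7 probe sets at an unadjusted p under 0.05.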

How the data were processed

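Per the submitters' processing notes, the authors used GCRMA and R 2.6.2, and the table they deposited holds log2 values for probe sets. GCRMA is a method that models background from each probe's sequence before arrays are normalized together. How it was set is not given in the sources used here; scanner files were not analysed. With 1 array a rat, the spread holds animal and technical differences, and the number of arrays limits the precision.

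The 57 control probe sets and the lowest 40% of the rest by mean were left out, which kept 9520. Gene names came from the platform annotation, in which 12783 probe sets had 1 symbol, 312 several and 2771 none. The limma 3.58.1 package in R 4.3.3 gave a slope per SD of a behaviour, or of a member's log2 level, with lmFit and eBayes, two-sided tests, 7 residual degrees of freedom, and Benjamini-Hochberg adjustment over all probe sets tested, with the member's own left out. It was tested on simulated data. For the members, exact two-sided permutation tests of Pearson r and Spearman rho used the 362880 pairings of 9 rats, or 5040 of 7, with p-values adjusted over 4 behaviours or 11 pairs (Python 3.11.15, numpy 2.4.6, pandas 2.3.3, scipy 1.17.1, matplotlib 3.10.9). Correlations with other genes are descriptions.

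For each gene the probe set of highest mean led. Named beside a member are the 5 genes of highest and 3 of lowest r, 1 probe set per gene, leaving out provisional symbols (LOC, RGD, MGC, AABR), and up to 4 genes of a list by size of r. The members and lists were chosen with earlier results of these data known. The fits were repeated unfiltered, with the filter at 70%, after another quantile normalization, with robust moderation on an intensity trend, on ranks, with array weights, and without each rat or without rats 8 and 9. Correlations without the 2 rats farthest from a member's median, or over rats 1 to 6 or 2 to 7, and the repeats of the list medians were chosen after seeing the data.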

Additional observations from a re-analysis of the deposited data

Results flagged for a closer look

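No probe set of Dusp1, Dusp5 or Dusp6 had a rat far from all the others by Dixon's test for groups of 9, but 14 of the 75 probe sets looked at beside them did. For independent groups without repeated values, chance gives about 1 in 20. These probe sets share the same 9 arrays, some were picked by their correlation with a member, and exact repeats are common. The count can therefore not be set against that rate. Among the genes of similar or opposite pattern, rat 1 was far below the other rats in Chd3 (8.36, next 8.79), Entr1 (4.01, next 4.48) and Spryd3 (7.80, next 8.34). Rat 7 was far below in Eif4b (8.22, next 8.57). Rat 9 was lowest in Rnf113a1 (4.20, next 4.23), a small step in a probe set that went no higher than 4.24 in any rat. Among phosphatases and ERK pathway genes, rat 9 was lowest in Dusp22 (6.64, next 6.95) and Ets1 (3.60, next 3.78). Rat 8 was lowest in Spry2 (8.16, next 8.70) and highest in Srf, the factor that binds CArG boxes (8.85, next 8.50). Among glucocorticoid genes, rat 1 was lowest in Nfkbia (4.46, next 4.97) and rat 9 in Nr3c1, the glucocorticoid receptor (6.19, next 6.95). Rat 8 was lowest in Ddit4 (6.28, next 7.36). Rat 3 was lowest in Nr3c2, the mineralocorticoid receptor (3.81, next 5.07), and highest in Mt2A, a metallothionein (8.74, next 7.99). All are log2 values, and 7 of the 14 were in rats 8 and 9, whose arrays stood apart.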

How the results depend on the processing

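Under every limma alternative run, 0 of the 6 probe sets passed with any behaviour; by the exact permutation test of r, Dusp5 with locomotion had an adjusted p of 0.0190 over the 7 rats without 8 and 9. The 70% filter left out Dusp5 and Dusp1 probe set 1368147_at, so it gave no value for them. No paired analysis was possible because the labels define 1 group, so no groups share replicate numbers. The number of probe sets that followed Dusp6, 630, was 355 with no filter, 413 with the 70% filter, 0 with ranks, 1905 with array weights and 10 without rats 8 and 9, and 103 to 1413 when each rat was left out, lowest without rat 9 and highest without rat 7. The filters test other numbers of probe sets; for the other settings the cause was not tested. For Dusp1 the count of 0 was 1 with no filter and 1 with array weights, and for Dusp5 it was 0 to 1 when each rat was left out. The count of 0 member pairs was 1 with quantile normalization again and 0 to 2 when each rat was left out. Without rats 8 and 9 the median r with Dusp1 was 0.46 for activity-induced genes and -0.06 for the glucocorticoid list, and when each rat was left out the glucocorticoid list gave -0.24 to 0.00479.

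Several small values changed sign, none of them past the threshold. Without rats 8 and 9, slopes were 0.040 for Dusp1 1368147_at on startle, -0.18 for Dusp6 1387024_at on locomotion, and -0.0024 for 1382778_at and -0.115 for 1387024_at on sugar feeding. With array weights they were -0.018 for 1377064_at and -0.065 for 1387024_at on locomotion, and -0.0079 for 1387024_at on sugar feeding. With ranks, Dusp1 1368147_at had 0.012 on sugar feeding. Leaving out each rat gave, on locomotion, -0.044 to 0.027 for Dusp1 1368147_at, -0.083 to 0.0061 for Dusp5, -0.060 to 0.071 for 1377064_at, -0.02 to 0.11 for 1382778_at and -0.12 to 0.33 for 1387024_at. On sugar feeding it gave -0.072 to 0.13 for Dusp1 1368147_at, -0.024 to 0.0028 for Dusp5, -0.062 to 0.016 for 1377064_at, -0.0051 to 0.042 for 1382778_at and -0.10 to 0.44 for 1387024_at. It gave -0.088 to 0.0026 for Dusp5 on startle and -0.032 to 0.079 for 1377064_at on plus maze.

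Among pairs, rho was -0.21 for Dusp1 1368146_at and -0.12 for Dusp1 1368147_at with Dusp6 1382778_at, and 0.18 for Dusp1 1368147_at and 0.20 for Dusp5 with 1377064_at. After quantile normalization r was 0.20 for Dusp1 1368147_at and 0.14 for Dusp5 with 1377064_at. Without rats 8 and 9 r with 1382778_at was -0.10 for Dusp1 1368146_at and -0.50 for 1368147_at. Leaving out each rat gave, with 1377064_at, -0.15 to 0.61 for Dusp1 1368146_at, -0.19 to 0.16 for 1368147_at and -0.081 to 0.12 for Dusp5, and, with 1382778_at, -0.15 to 0.37 for Dusp1 1368146_at and -0.25 to 0.54 for 1368147_at.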
